A study of Homo sapiens with 12 samples.

Results

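The stretch of 22q11 that ends just beyond BCR and the 1 Mb of 9q34 that holds ABL1 carried 251 of the 24658 distinct intervals in the GATA1 and TAL1 peak lists of control K562 cells. The intervals were chosen by position alone, as those overlapping chromosome 22 from 16000000 to 23700000 (the 22q11 side, 221 intervals) or chromosome 9 from 133500000 to 134500000 (the 9q34 window, 30 intervals) in hg19. Of the 251, 177 (70.5%) were in the GATA1 list alone, 65 (25.9%) were in both lists and 9 (3.59%) were in the TAL1 list alone. On the chromosomes other than 22, these classes made up 64.0%, 28.4% and 7.63% of the intervals. No interval lay across a boundary of either region. The last interval inside the 22q11 side was a GATA1-only one at 23623950 to 23624327, and the first beyond it was a TAL1-only one at 23744312 to 23744470. On 9q34 the outermost members were GATA1-only intervals at 133568894 to 133569327 and 134410286 to 134410577. The nearest intervals outside were GATA1-only at 133435814 to 133436257 and shared at 134511919 to 134512310.

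K562 is a line grown from a patient with chronic myeloid leukaemia in blast crisis and has erythroid features. It carries the Philadelphia translocation, which joins the front part of BCR to the rear part of ABL1 and yields a constitutively active tyrosine kinase. In K562 the joined segments of 22q11 and 9q34 are present in many extra copies. GATA1 is a zinc finger factor that binds GATA motifs and drives erythroid and megakaryocytic genes. TAL1, of the basic helix-loop-helix family, binds E-boxes and meets GATA1 in a complex bridged by LMO2 and LDB1.

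GATA1 and TAL1 were each profiled by ChIP-seq in 1 library of control K562 cells, with 1 peak list for each. Intervals of the GATA1 and TAL1 lists were either identical or did not overlap at all. Whether the lists were called separately or taken from a merged set is unknown. The classes and shares below may therefore not rest on independent calls. The labels call these cells control and do not say whether they carried a vector. The lists give only the position of each interval, with no height or score, and the depth of the libraries is unknown. The other 10 libraries of the series, namely the GATA1 and TAL1 shRNA knockdown cells, LDB1, H3K27ac and the input, were not analysed here. No value therefore has a replicate error, and p-values and intervals treat listed intervals as the units and cover counting error only. Copy number was not measured, so its part in any difference between regions was not tested.

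The BCR promoter is shown because a GATA1-only interval, 132 bp wide, ended 258 bp before the start of the BCR bounds. The ABL1 promoter is shown because no interval came closer than 6072 bp to the start of the ABL1 bounds. The gene bounds used are rounded to 1 kb (BCR 23523 to 23660 kb, ABL1 133589 to 133763 kb), so these distances have that precision. The 258 bp is smaller than that, so the interval may lie before or across the start of BCR. Each sequence is the 250 bases before a gene start on the plus strand in RefSeq (GRCh38.p14). That is a different build from that of the lists, so the intervals cannot be drawn on it. The RefSeq starts were not matched to the hg19 bounds, so the ABL1 sequence may lie inside those bounds. The 6072 bp is therefore not a distance to that sequence.
BCR, chr22:23180259-23180508: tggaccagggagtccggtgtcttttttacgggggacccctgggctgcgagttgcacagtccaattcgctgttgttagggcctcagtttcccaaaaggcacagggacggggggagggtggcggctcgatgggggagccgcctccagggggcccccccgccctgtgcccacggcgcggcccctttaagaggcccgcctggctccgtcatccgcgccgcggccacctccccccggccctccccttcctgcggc
ABL1, chr9:130835004-130835253: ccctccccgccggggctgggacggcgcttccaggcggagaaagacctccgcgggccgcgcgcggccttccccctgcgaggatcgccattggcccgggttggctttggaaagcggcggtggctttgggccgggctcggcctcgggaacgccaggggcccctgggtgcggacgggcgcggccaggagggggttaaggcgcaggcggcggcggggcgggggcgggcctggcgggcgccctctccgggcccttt
Both were rich in G and C, at 70.8% for BCR and 78.4% for ABL1, against a median of 58.0% over 35116 RefSeq promoters. The GATA motif was searched as the letters AGATAA, the letters AGATAG, the letters TGATAA and the letters TGATAG, and the E-box as CANNTG, on both strands. Neither promoter held a match to either, and so no base is in capitals. Of all promoters of that length, 22.3% held the GATA motif and 61.8% CANNTG. The E-box form CAGCTG, which the broader E-box includes, was found in 14.0% of all promoters. The letters CTG followed by GATA after 7, 8 or 9 bases, which can overlap the GATA motif, were found in 4.74%. Neither was in the BCR or ABL1 promoter.

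GATA1 intervals were packed more densely on the 22q11 side than farther along the arm, and the excess was largest for those without TAL1. GATA1-only intervals numbered 154 on the 22q11 side, or 20 per Mb (95% exact Poisson interval 17.0 to 23.4), against 115 on the rest of 22q, or 4.17 per Mb (3.44 to 5.0). Intervals in both lists numbered 60, or 7.79 per Mb (5.95 to 10.0), against 94, or 3.41 per Mb (2.75 to 4.17). TAL1-only intervals numbered 7 on the 22q11 side, or 0.909 per Mb (0.366 to 1.87), against 30 on the rest of 22q, or 1.09 per Mb (0.733 to 1.55). The density ratios over the rest of 22q were 4.80 for GATA1-only intervals, 2.29 for intervals in both lists and 0.837 for TAL1-only intervals, the last with an exact interval of 0.310 to 1.94. With only unstained bands on both sides the TAL1-only ratio was 0.397, on 2 and 16 intervals. These ratios were given no test, because the step in density on this arm was known from earlier results of these data.

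**Figure D1:**
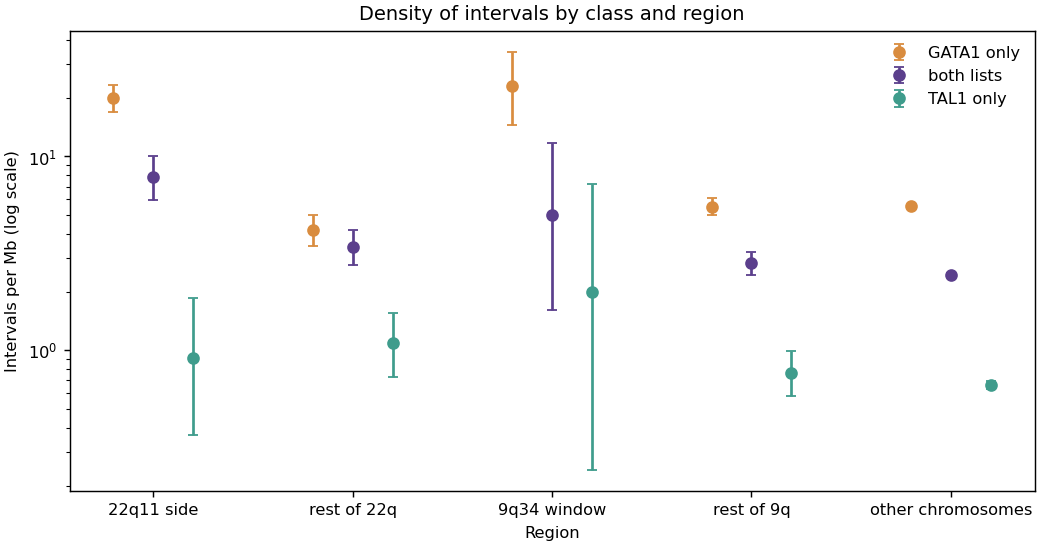
Density of intervals (per Mb, log scale) by class in 5 regions, with points for the density and bars for 95% exact Poisson intervals that cover counting error only. GATA1-only density was 20 per Mb on the 22q11 side and 23 in the 9q34 window, against 4.17 on the rest of 22q and 5.52 on the rest of 9q, while the bars of the TAL1-only class overlap between each region and the rest of its arm.

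The rest of 22q was not an average reference. Over the other chromosomes, GATA1-only intervals numbered 5.54 per Mb, intervals in both lists 2.46 per Mb and TAL1-only intervals 0.660 per Mb. Against that density the 22q11 side had ratios of 3.61, 3.17 and 1.38, so the classes with GATA1 stood much closer together than against the rest of 22q. The territories were unlike, since the other chromosomes leave out centromeric bands. The 22q11 side keeps its part of the centromeric band 22q11.1, with 6 intervals. Intervals of either list covered 1.01% of the 22q11 side, against 0.277% of the rest of 22q.

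The dense stretch began some way from the centromere, and the counts per 1 Mb window fell beyond the window that holds BCR. From the centromeric end to BCR, successive 1 Mb windows of the 22q11 side held 6, 15, 27, 45, 41, 57 and 30 intervals. The next windows beyond 23700000 held 8, 6, 5, 7 and 3. The windows were laid out from that chosen bound, so they do not place an edge at BCR. Within the last window of the 22q11 side, BCR itself held 12 intervals and the 500 kb before it 9. The 500 kb after BCR held 6. All 7 windows of the 22q11 side held more GATA1-only intervals than the median of 4 in the 27 windows of the rest of 22q, and 3 of them exceeded the highest, which had 18. No window exceeded the highest count of TAL1-only intervals on the rest of 22q, which was 3. The window with 57 intervals (21700001 to 22700000) had 38 GATA1-only, 17 shared and 2 TAL1-only intervals. Among 2757 windows of the other chromosomes, 6 held more than 57 intervals and the median window held 5.

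**Figure D2:**
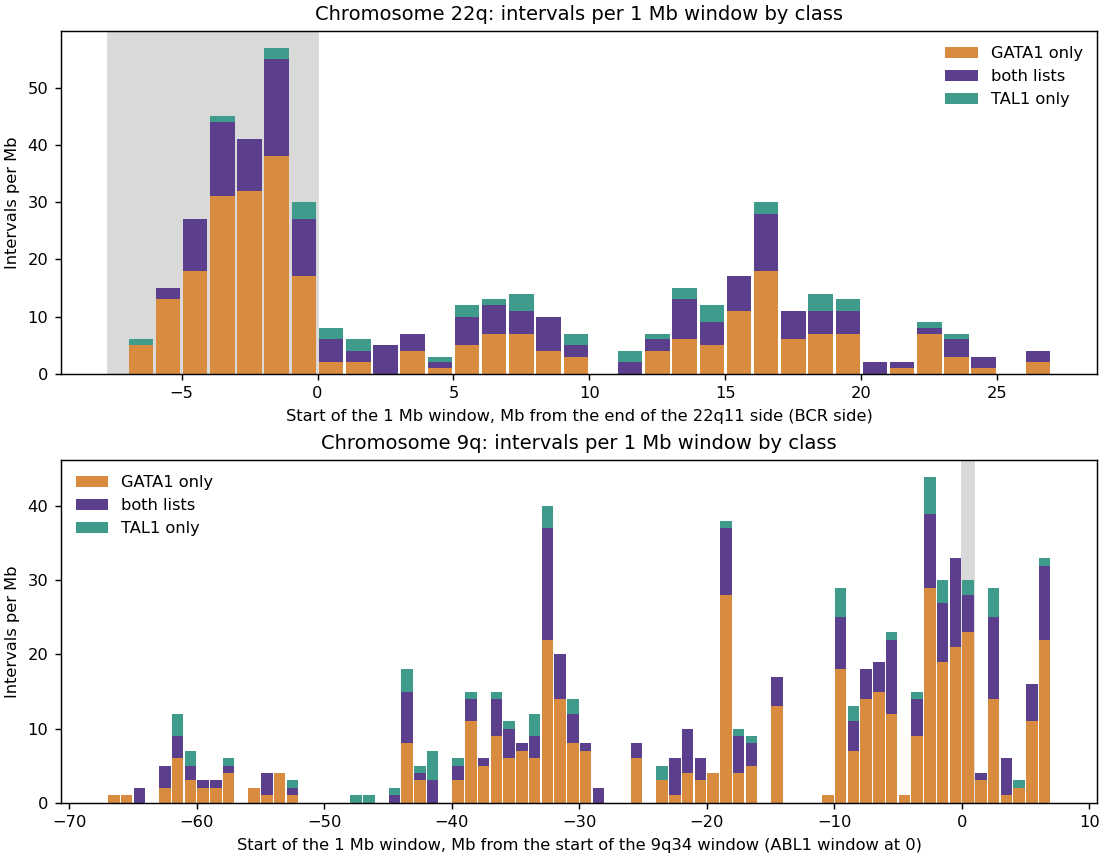
Intervals per 1 Mb window along 22q and 9q, stacked by class, with distance from the distal end of the 22q11 side or from the start of the 9q34 window on the x axis and the region shaded. On 22q the count is 30 in the last window before the end of the 22q11 side and 8 in the first beyond it. On 9q the 9q34 window, with 30, follows windows of 44, 30 and 33 and comes before a window of 4.

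By cytogenetic band, most of the 22q11 intervals fell in 22q11.21, an unstained band, with 120 GATA1-only, 42 shared and 1 TAL1-only interval. GATA1 intervals there numbered 37.7 per Mb. In 22q11.22, a lightly stained band, 20 GATA1-only, 13 shared and 4 TAL1-only intervals were listed, or 25.4 GATA1 intervals per Mb. The centromeric band 22q11.1 held 6 intervals, none of them shared. The band that holds BCR, 22q11.23, is unstained and lies mostly beyond the 22q11 side (23500001 to 25900000). As a whole it held 29 intervals, or 10.0 GATA1 intervals per Mb. Among bands of the rest of 22q, 22q13.1 had most GATA1 intervals per Mb, with 17.6, and it is unstained as well.

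Taken as a whole, the 22q11 side had less overlap of the lists from the GATA1 side and more from the TAL1 side than the rest of the arm. Of the GATA1 intervals, 60 of 214 (28.0%, 95% exact Clopper-Pearson interval 22.1 to 34.6%) were also in the TAL1 list on the 22q11 side, against 94 of 209 (45.0%, 38.1 to 52.0%) on the rest of 22q. That difference of -16.9 percentage points passed Fisher's exact test (two-sided p = 0.00039, Benjamini-Hochberg adjusted p = 0.00156 over 4 shares). Both shares on this arm rest on the same counts as the density ratios by class. The region and the test were chosen with earlier results of these data known. The p-values of both shares are therefore descriptions of these lists and not independent evidence. Over chromosomes 1 to 22 and X the share was 30.9%, so the 22q11 side was near the background and the rest of 22q above it. With the other chromosomes as reference the gap shrank to -2.71 points and was no longer called (adjusted p = 0.551 by Fisher's exact test).

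Of the TAL1 intervals on the 22q11 side, 60 of 67 (89.6%, 79.7 to 95.7%) were also in the GATA1 list, against 94 of 124 (75.8%, 67.3 to 83.0%) on the rest of 22q. The background over chromosomes 1 to 22 and X was 78.9%. The difference of 13.7 points passed narrowly (Fisher's exact test, two-sided p = 0.0223, adjusted p = 0.0445). It did not pass with intervals within 2 kb joined to 1 site (11.8 points, adjusted p = 0.104 by the same exact test), nor against the other chromosomes (10.7 points, adjusted p = 0.137 by Fisher's exact test). Leaving out single 1 Mb windows of the 22q11 side ended the call for 5 of 7 windows (12.1 to 16.8 points over all 7). Neighbouring intervals are not independent, so the p-values over single intervals are too small.

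**Figure D3:**
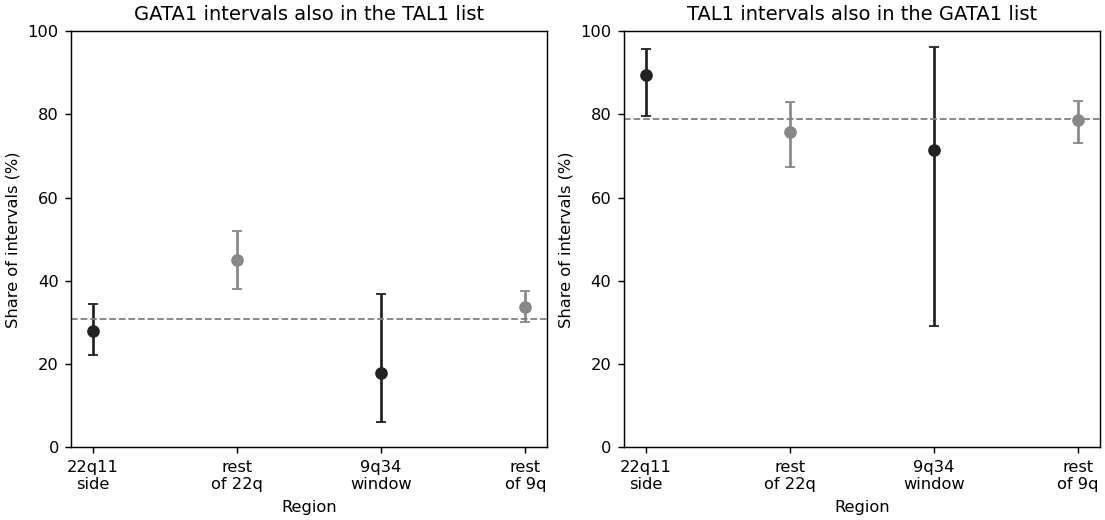
Share of GATA1 intervals also in the TAL1 list (left) and of TAL1 intervals also in the GATA1 list (right), in percent, for each region and the rest of its arm, with 95% Clopper-Pearson intervals and a dashed line at the share over chromosomes 1 to 22 and X. The 22q11 side lies at 28.0% and 89.6%, against 45.0% and 75.8% on the rest of 22q, and the bars of the 9q34 window are wide because they rest on 28 GATA1 and 7 TAL1 intervals.

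Shared intervals on the 22q11 side were wide. Their median width was 461.5 bp (interquartile range 293.75 to 664.25 bp), against 360.5 bp (294.75 to 447.25 bp) on the rest of 22q and 373 bp on the other chromosomes. GATA1-only intervals had a median of 287.5 bp on the 22q11 side, against 245 bp on the rest of 22q and 264 bp on the other chromosomes. The widest were a shared interval of 1307 bp at 20046144 to 20047450, a GATA1-only one of 869 bp at 19466640 to 19467508 and a TAL1-only one of 818 bp at 20286450 to 20287267. Widths were not tested. Shared intervals have identical boundaries in both lists, so a width belongs to the listed interval and not to either factor.

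Shares by width are given as a description, with no test. Of GATA1 intervals narrower than 298 bp, the median of that list, 15 of 95 (15.8%, 95% exact Clopper-Pearson interval 9.12 to 24.7%) were also in the TAL1 list on the 22q11 side, against 26 of 95 (27.4%, 18.7 to 37.5%) on the rest of 22q, and these intervals overlap. Of those at least as wide, 45 of 119 (37.8%, 29.1 to 47.2%) were shared on the 22q11 side, against 68 of 114 (59.6%, 50.1 to 68.7%) on the rest of 22q. In the 9q34 window 2 of 15 narrower (13.3%, 1.66 to 40.5%) and 3 of 13 wider GATA1 intervals (23.1%, 5.04 to 53.8%) were shared, and these intervals overlap as well. On the other chromosomes the shares were 19.4% of the narrower and 42.1% of the wider intervals.

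**Figure D4:**
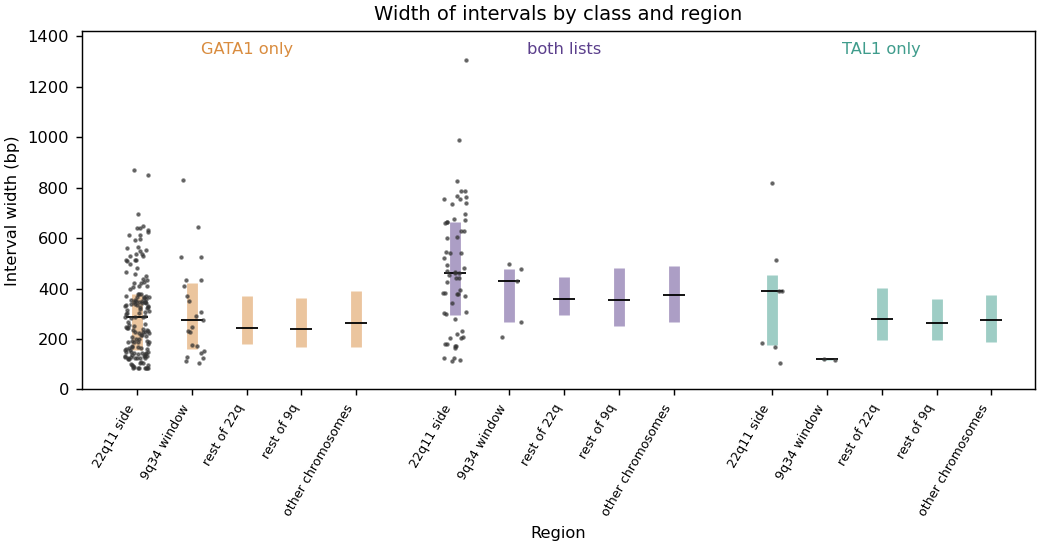
Width of intervals (bp) by class and region, with a dash at the median and a bar over the interquartile range, and with dots for the single intervals of the 22q11 side and the 9q34 window. Shared intervals of the 22q11 side have a median of 461.5 bp and reach 1307 bp, against a median of 360.5 bp on the rest of 22q.

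Intervals on the 22q11 side stood in tight groups. Neighbouring intervals were a median of 9.46 kb apart there, against 43.1 kb on the rest of 22q. Joining gaps of at most 10 kb gave 26 clusters of 3 or more intervals, which held 119 of the 221 intervals (53.8%), against 10 clusters with 34 of 239 intervals (14.2%) on the rest of 22q. Of the 26 clusters on the 22q11 side, 18 held GATA1 and TAL1 and 8 held GATA1 without TAL1, against 10 and 0 on the rest of 22q. The longest stretch of the 22q11 side without an interval, between its first and last, measured 431.8 kb. Cluster counts rise with density and were not tested.

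No cluster of the 9q34 window held more than 4 intervals. On the 22q11 side 3 clusters held more than 6 intervals and 4 held exactly 6. The largest held 13 GATA1 intervals in 42.3 kb (21978493 to 22020816), and 3 of them were TAL1 intervals as well. A cluster of 9 GATA1 intervals, again with 3 shared, spanned 28.0 kb at 19995105 to 20023118. The cluster at 19705579 to 19718708 was richer in TAL1, with 4 of 7 GATA1 intervals shared within 13.1 kb. The cluster at 21207620 to 21222406 had 6 GATA1 intervals, 2 of them shared. Of the other clusters of 6, one at 19744143 to 19764546 held 6 GATA1-only intervals and no TAL1 interval, and one at 22210236 to 22237518 held 6 GATA1 intervals with 1 of them shared. The remaining one, 10.3 kb wide, lay across the start of BCR and is described with that gene. The RefSeq table at hand is of another build, so no gene is named for the other clusters.

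BCR encodes a protein with kinase and GTPase-regulating domains, and in the fusion its front part drives the oligomerisation that activates ABL1. Within the gene bounds, 137 kb long, 12 intervals were listed, all of them in the GATA1 list and 4 of them in the TAL1 list too. That is 87.6 intervals per Mb, against 28.7 over the whole 22q11 side. On the other chromosomes 92.4% of all intervals were in the GATA1 list. Over chromosomes 1 to 22 and X, 30.9% of GATA1 intervals were also in the TAL1 list. The class counts in BCR were thus near those of the lists as a whole. The intervals in and just before BCR fell into stretches of unlike class. Around the gene start, 6 intervals between 23519446 and 23529718 made a cluster with 2 shared, 3 GATA1-only and 1 TAL1-only interval. Those before the gene bounds were a shared one at 23519446 to 23519726, the TAL1-only one at 23521675 to 23521859 and a GATA1-only one at 23522611 to 23522742. Farther into BCR, all 3 intervals from 38.3 to 43.1 kb after the gene start were shared, at 23561226 to 23561405 (180 bp), 23562405 to 23563007 (603 bp) and 23565831 to 23566429 (599 bp). The 5 intervals from 61.5 to 71.1 kb were all GATA1-only, with widths from 89 to 561 bp. A single GATA1-only interval of 378 bp followed at 101.1 kb. The last 35.7 kb of BCR held none, and from that last interval to the next on the chromosome, TAL1-only and 159 bp wide, the gap was 119.984 kb. The position of the break in BCR is not in the files.

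On either side of BCR the counts depended on how far out they were taken, and they were not tested. The 250 kb before the gene held 7 intervals and the 250 kb after it 4. Over 500 kb the counts were 9 before and 6 after. The 1000 kb before the gene held 22 intervals, with 10 GATA1-only, 8 shared and 4 TAL1-only. The 1000 kb after it held 8, with 2 GATA1-only, 4 shared and 2 TAL1-only. In the order of GRCh38, RAB36 and GNAZ are the coding genes that come before BCR, and IGLL1 follows after 1 unnamed locus.

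ABL1, a tyrosine kinase gene whose rear part is kept in the fusion, held 6 intervals within its 174 kb, or 34.5 per Mb. All 6 were GATA1 intervals and 2 of them TAL1 intervals, again near the shares of 92.4% and 30.9% given with BCR. None lay in the first 95.9 kb of the gene, and all 6 fell between 95.9 and 147.5 kb after its start. The 2 shared intervals were neighbours, at 133719522 to 133719951 (430 bp) and 133721145 to 133721640 (496 bp). The widest, GATA1-only, measured 832 bp at 133700198 to 133701029, and the other GATA1-only intervals measured 126, 308 and 524 bp. Outside the gene the nearest intervals, both GATA1-only, lay 6072 bp before its start and 6865 bp after its end. Near the start of the bounds used, BCR held several intervals and ABL1 held none. The RefSeq start of ABL1 was not matched to these bounds and may lie farther inside them. This contrast therefore holds for the bounds and not for every start of the gene.

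**Figure D5:**
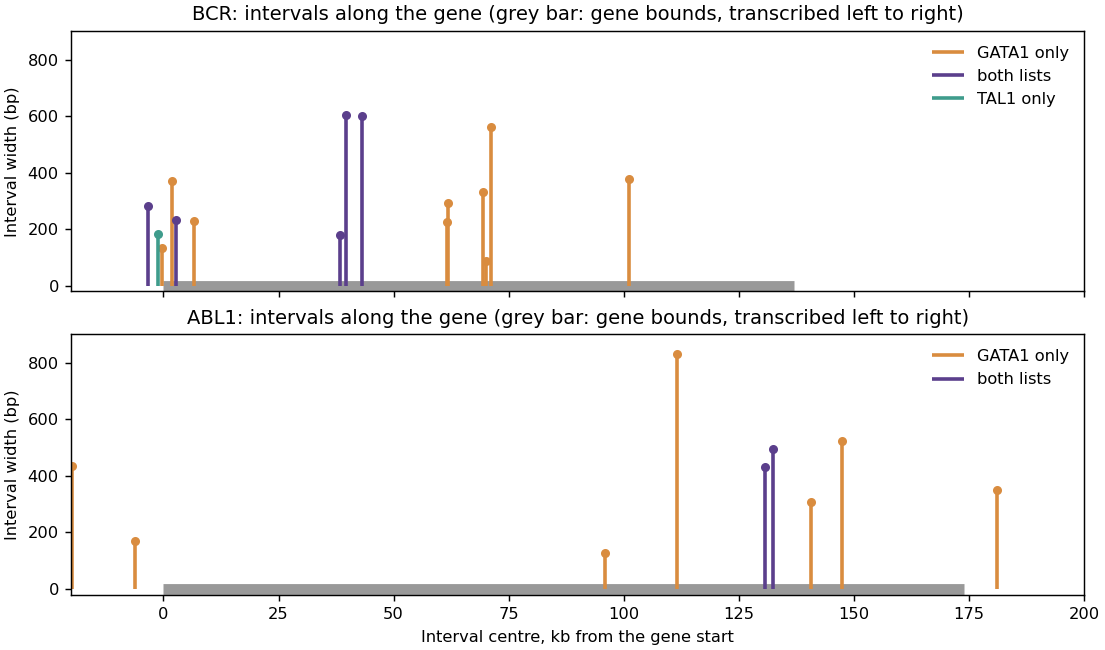
Intervals along BCR and ABL1, by class, with the distance of the centre from the gene start (kb) on the x axis and the width (bp) on the y axis, and with the gene bounds as a grey bar. In BCR 3 shared intervals stand together from 38.3 to 43.1 kb, and in ABL1 all 6 intervals lie beyond 95.9 kb.

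The 9q34 window was close to the 22q11 side in density, and the windows just before it on 9q were as dense. It held 23 GATA1-only intervals, 5 shared ones and 2 TAL1-only ones. Its GATA1 intervals numbered 28.0 per Mb (18.6 to 40.5), close to the 27.8 per Mb of the 22q11 side and against 8.33 per Mb over the rest of 9q. Of 74 windows of 1 Mb on 9q, 5 held more GATA1 intervals than this one and 10 held more TAL1 intervals. The 3 windows just before it held 44, 30 and 33 intervals, and the window just after it held 4. For GATA1-only intervals, 2 of the 73 other windows held more than its 23.

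Of the GATA1 intervals in the 9q34 window 5 of 28 (17.9%, 6.06 to 36.9%) were also in the TAL1 list, against 209 of 619 (33.8%, 30.0 to 37.6%) on the rest of 9q. This difference of -15.9 points did not pass (Fisher's exact test, two-sided p = 0.1, adjusted p = 0.133). From the TAL1 side, 5 of 7 (71.4%, 29 to 96.3%) were shared, against 209 of 266 (78.6%, 73.1 to 83.3%), and this did not pass either (Fisher's exact test, two-sided p = 0.647, adjusted p = 0.647). The exact intervals of each share overlap between the 9q34 window and the rest of 9q. With an interval of the other list within 1000 bp counted as shared, the GATA1 intervals differed by -19.5 points, which missed the threshold after adjustment (p = 0.0437, adjusted p = 0.0582 by the same exact test). Within the window, density was 22.5 intervals per Mb before ABL1, 34.5 in ABL1 and 29.9 after it. The stretch after ABL1 held 22 intervals, of which 17 were GATA1-only.

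The 9 TAL1-only intervals of both regions fell into near and distant ones. On the 22q11 side, 3 of 7 lay within 1000 bp of a GATA1 interval, at gaps of 72, 321 and 751 bp. These were narrow, at 170, 105 and 185 bp. A further one lay 2.67 kb away, and the other 3, 392 to 818 bp wide, lay 18.9 to 25.9 kb away. In the 9q34 window the gaps were 152 bp and 15.7 kb, with widths of 122 and 117 bp. On the rest of 22q, 5 of 30 TAL1-only intervals lay within 1000 bp of a GATA1 interval, and the median gap was 15.6 kb, against 2.67 kb on the 22q11 side. These gaps were not tested, and a gap shrinks where GATA1 intervals are dense.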

How the data were processed

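The deposited peak lists of GATA1 and TAL1 in control K562 cells hold the start and end of each interval in 3 columns without scores. Chromatin was cut with micrococcal nuclease before precipitation, per the labels' protocols. Trimmomatic, Bowtie2, MACS2, deepTools and hg19 are named, without role, version or threshold, per the submitters' processing notes. Pooling before peak calling is not stated. Groups came from the sample titles. Rows were compared by exact coordinates, and positions are counted from 1. Bands came from circlize 0.4.16 and chromosome lengths from GenomeInfoDb 1.38.1. Densities of the other chromosomes leave out centromeric, variable and stalk bands, and 9q was taken from 65900001. Shares were compared by Fisher's exact test (scipy 1.17.1, two-sided, Benjamini-Hochberg over 4 shares at 0.05), checked on simulated data. Windows count intervals by their centre. Intervals described singly were those in or nearest to BCR and ABL1, the 5 clusters with most intervals (ties by smaller span), the other clusters tied with them and the widest of each class. The regions, tests and lists were chosen with earlier results of these data known. Alternatives were joined sites (2 kb), wide intervals, other region bounds, another reference and other definitions of sharing.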

Additional observations from a re-analysis of the deposited data

How the results depend on the processing

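Restricting both sides to unstained bands and leaving out single windows were chosen after seeing the data. The GATA1 density ratio of the 22q11 side over the rest of 22q was 3.67; it was 2.95 with joined sites and 4.76 without the centromeric band. With the other chromosomes as reference, the ratio was 2.79 for the TAL1 list (from 1.94) and 3.61 for GATA1-only intervals (from 4.80). The lower share of GATA1 intervals also in the TAL1 list held in 6 of 7 alternatives, and was -2.71 points against the other chromosomes. Leaving out single windows of the 22q11 side gave -18.2 to -15.5 points, all past the threshold. The higher share of TAL1 intervals was 11.8 points with joined sites, 9.48 with wide intervals, 12.3 with the side ended at the BCR start and 10.7 against the other chromosomes, none past the threshold by Fisher's exact test (adjusted p up to 0.264). Leaving out single windows gave 12.1 to 16.8 points, and 5 of 7 did not pass. Requiring 50% overlap could change no share, since shared intervals have identical bounds, and is not counted here. In the 9q34 window the difference in the share of TAL1 intervals, -7.14 points, was 15.2 with wide intervals and 3.76 with sharing within 1000 bp, on 3 and 7 TAL1 intervals. Wide intervals there numbered 13 (GATA1) and 3 (TAL1). Causes were not tested. Densities without assembly gaps were not run, as no hg19 genome was used here. No paired analysis was possible because each factor has 1 library. Unknown depth limits every count.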
